A study of Mus musculus with 6 samples.

Results

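The genes examined here are the 41 ligands, latency proteins, antagonists, receptors, SMADs and target genes of TGF-beta, BMP and activin signalling, taken by symbol from a written list. All 41 had a probe set of their own, 1 each, among the 22180 genes that could be named on the arrays. RNA of mouse mammary stem cells, grown as 3-dimensional epithelial cultures called organoids, was measured on 6 Affymetrix arrays, 1 sample on each. There were 3 arrays from Mll3-null cells, in lines made by CRISPR to lack MLL3, the histone H3 lysine 4 methyltransferase encoded by Kmt2c, and 3 from wild-type (WT) cells. Each array is labelled a biological replicate, but no label says whether the replicates were separate lines, clones or cultures, so p-values measure only the spread between these samples, which may be technical. Neither strain nor age is given, and no agent is named for either group. All values below are deposited log2 expression values, 1 per probe set and array. No detection values were used, so a low value may be background, and levels of different genes are not compared.

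TGF-beta, activin and BMP dimers bind pairs of receptor serine/threonine kinases, which phosphorylate SMAD proteins. TGF-beta and activin act mainly through SMAD2 and SMAD3, BMPs through SMAD1, SMAD5 and SMAD9, and both kinds of SMAD enter the nucleus with SMAD4. Secreted antagonists such as gremlin, noggin and chordin hold BMPs away from their receptors, follistatins bind activins, and the Id genes are classical BMP targets whose products block basic helix-loop-helix transcription factors. In the mammary gland TGF-beta is known as a restraint on ductal growth.

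On the 6 arrays the epithelial label was borne out by Epcam, at 10.72 to 10.94 in Mll3-null and 10.72 to 10.93 in WT cells, and by the luminal keratin Krt8, at 10.28 to 10.57 in Mll3-null and 10.16 to 10.46 in WT cells. Mll3-null replicate 3 stood apart from the rest: 294 genes lay more than 1 log2 unit below all 5 other arrays there, against 1 to 24 genes on each other array. Another 123 genes lay more than 1 log2 unit above all 5 other arrays there, against 9 to 33 on each other array. Of the 6 basal markers measured, Krt14, Krt17, Trp63, Acta2 and Itgb4 were lowest on that array, with Krt14 at 6.65 and the basal transcription factor Trp63 at 5.02, against 11.74 to 12.43 and 7.86 to 8.84 on the other arrays, while the integrin Itga6 was highest there, at 11.22 against 10.71 to 11.003. Kmt2c itself did not separate the groups (6.11 ± 0.29 in Mll3-null and 6.01 ± 0.55 in WT cells, SD, n = 3 each), and since the sources used here do not place its probe set relative to the deletion, this does not check the labels. In such bulk samples fewer cells of a type and less RNA per cell cannot be told apart.

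The BMP antagonist Grem1 and the Id genes are set against each other below, so the starts of Grem1, Id3 and Id2 are shown first. They are RefSeq sequences of build GRCm38.p6, 250 bases before to 50 bases after the gene's start, written 5′ to 3′ on the gene's strand, and such a sequence was found for 27 of the 41 genes. Capitals mark GGCGCC, a GC-rich SMAD element, and CAGAC or its reverse complement GTCTG, the SMAD-binding element, with no overlap between the marked stretches. Grem1 lies at chr2:113758599-113758898 on the minus strand, Id3 at chr4:136143572-136143871 on the plus strand and Id2 at chr12:25096043-25096342 on the minus strand.
Grem1: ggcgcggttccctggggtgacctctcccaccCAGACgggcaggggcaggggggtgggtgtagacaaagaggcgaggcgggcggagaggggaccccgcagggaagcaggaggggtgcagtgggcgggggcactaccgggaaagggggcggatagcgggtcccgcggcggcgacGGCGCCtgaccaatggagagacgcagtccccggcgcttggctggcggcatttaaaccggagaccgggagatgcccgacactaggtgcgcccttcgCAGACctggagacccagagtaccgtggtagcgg
Id3: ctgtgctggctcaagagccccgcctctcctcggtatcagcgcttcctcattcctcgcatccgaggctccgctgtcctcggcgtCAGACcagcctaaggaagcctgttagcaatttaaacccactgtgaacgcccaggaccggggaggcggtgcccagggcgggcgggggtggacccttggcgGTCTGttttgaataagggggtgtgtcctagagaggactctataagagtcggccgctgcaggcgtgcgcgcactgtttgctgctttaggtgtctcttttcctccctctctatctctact
Id2: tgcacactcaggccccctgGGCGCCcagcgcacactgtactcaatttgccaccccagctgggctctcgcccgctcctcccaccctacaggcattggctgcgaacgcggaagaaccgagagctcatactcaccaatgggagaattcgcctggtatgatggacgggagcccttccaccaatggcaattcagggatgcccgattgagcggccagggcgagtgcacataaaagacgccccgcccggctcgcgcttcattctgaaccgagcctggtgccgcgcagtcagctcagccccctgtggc
Grem1 held 1 GGCGCC and 2 CAGAC or GTCTG, Id3 held 0 and 2, and Id2 held 1 and 0. On either strand GGCGCC occurred in 8 of the 27 pathway promoters (29.6%) and in 12.0% of 27025 promoters of the same length, and CAGAC in 12 of 27 (44.4%) and in 49.7%. These shares were not matched for GC content, on which GGCGCC depends, and which was 70.7% for Grem1, 60.0% for Id3 and 63.3% for Id2. A match is a description of letters in this window and not a site.

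No gene of the pathway differed between Mll3-null and WT cells after correction. With limma's moderated test and Benjamini-Hochberg adjustment over 22180 genes, 0 of the 41 members and 0 of all genes (0%) had an adjusted p under 0.05, and the smallest adjusted p among the members was 0.84. An unadjusted p under 0.05 was reached by 5 members (12.2%), Grem1, Id1 and Acvr1 lower and Bambi and Bmp6 higher in Mll3-null cells, against 4.93% of all genes. The 2 groups of arrays did not overlap for 6 members (14.6%), Grem1, Smad2 and Id1 lower and Nog, Chrd and Bambi higher, against 10.7% of all genes. Means were higher in Mll3-null cells for 19 members and lower for 22, with a median log2 difference of -0.03, and 51.5% of all genes had a higher mean. Group means differed at least 2-fold for 5 members (12.2%), Tgfb2 upward and Grem1, Fst, Inhba and Bmp7 downward, against 1.15% of all genes. Of these 5, Grem1 alone had groups that did not overlap. The shares over all genes were not matched for level: 39 of the 41 members and 14720 of the 22180 genes had a mean log2 value over 4.

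**Figure D1:**
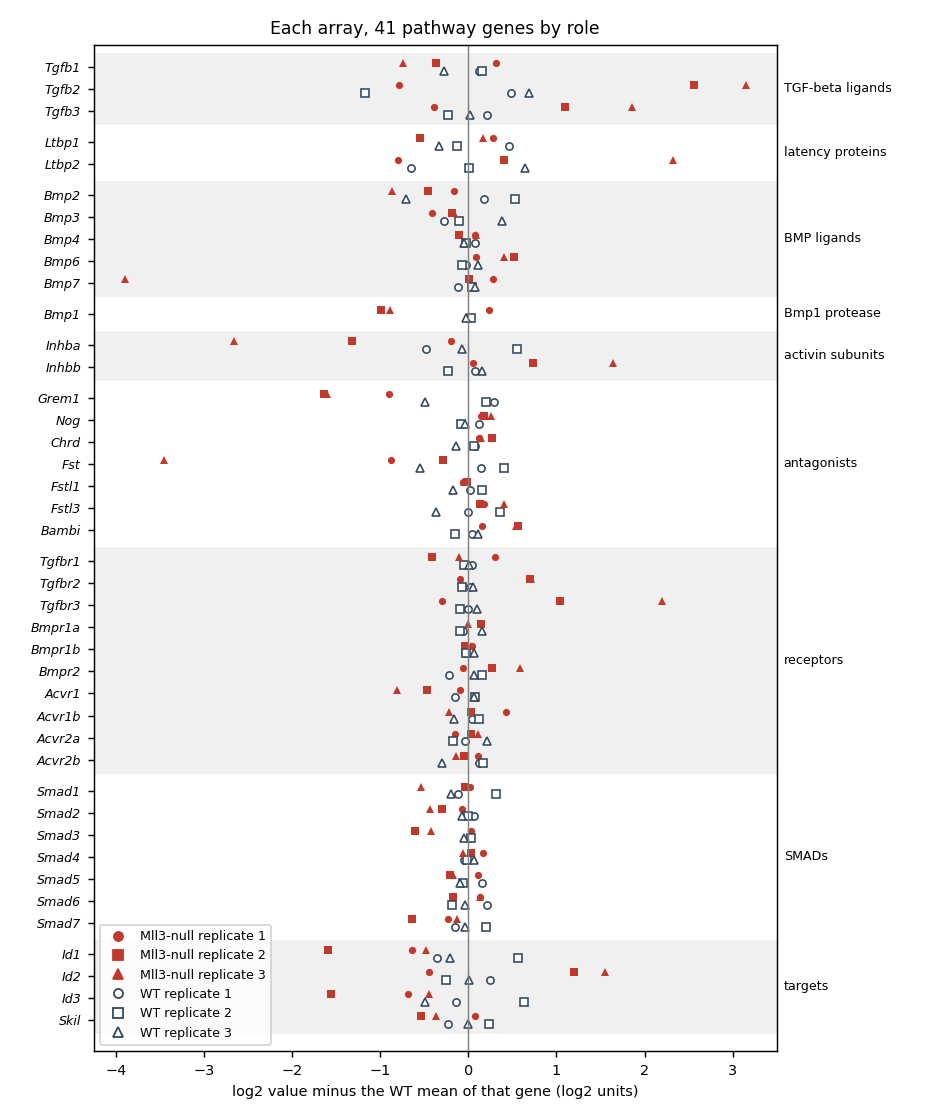
Each of the 41 genes is a row, grouped by role, and each point is 1 array, plotted as its log2 value minus that gene's WT mean (log2 units), with Mll3-null arrays filled and above, WT arrays open and below. The filled triangle of Mll3-null replicate 3 lies far from all others for Bmp7, Fst and Inhba on the left and for Ltbp2 and Tgfbr3 on the right, while all 3 filled points of Grem1 lie left of the open ones.

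Grem1, which encodes the secreted BMP antagonist gremlin 1, was lower on every Mll3-null array. Replicates 1 to 3 of the Mll3-null cells read 6.34, 5.61 and 5.64, against 7.53, 7.44 and 6.76 for those of the WT cells, and values of other genes are listed in the same order. The lowest WT array was thus 0.41 above the highest Mll3-null array. The difference was -1.38 ± 0.28 (log2, limma SE), or 2.60-fold lower, with a 95% interval from -2.05 to -0.71, an unadjusted p of 0.0020 and an adjusted p of 0.84. Grem1 was already known to be among the lower genes of smallest p in these data, so its p is not independent evidence. Leaving out any 1 array kept the difference between -1.62 and -1.23, with -1.27 without Mll3-null replicate 3. Grem1 is also a gene of fibroblasts. The 8 fibroblast markers had a summed level of 7.51 to 9.84 in Mll3-null and 8.73 to 10.82 in WT cells (log2 of the sum of linear values), and Dcn and Lum lay at 3.01 to 3.21 in Mll3-null and 2.80 to 3.40 in WT cells, near the lower quartile of all probe sets (3.27 to 3.29). The sum follows Postn, at 9.58, 9.18 and 3.37 in Mll3-null and 9.04, 10.68 and 8.12 in WT cells. Collagen Col1a1 was at 5.49 to 5.65 in Mll3-null and 5.40 to 5.60 in WT cells. Pdgfra went the other way from Postn, at 4.55, 6.32 and 5.47 in Mll3-null and 5.16, 5.14 and 5.25 in WT cells. Col1a2, Col3a1 and Pdgfrb had slightly higher Mll3-null means, by 0.17, 0.10 and 0.03, with overlapping groups. The part of the fibroblast markers in the Grem1 result was not tested.

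Of the other 6 antagonists, 4 had a higher mean in Mll3-null cells and Fst and Fstl1 a lower one. Noggin (Nog) was at 3.90, 3.93 and 4.01 in Mll3-null cells and at 3.87, 3.67 and 3.72 in WT cells, and chordin (Chrd) at 4.70, 4.84 and 4.72 in Mll3-null cells and at 4.65, 4.65 and 4.44 in WT cells. Both were higher on every Mll3-null array, by 0.19 ± 0.09 and 0.18 ± 0.10 (log2, SE). Nog lay under the array medians of 4.349 to 4.400, where a value may be background, and Chrd lay just over them. With only genes of mean log2 over 4, Nog dropped out and 5 members had groups that did not overlap (11.1% of all genes). Bambi, a membrane pseudoreceptor that dampens TGF-beta and BMP receptors, was at 7.25, 7.66 and 7.63 in Mll3-null cells and at 7.14, 6.95 and 7.21 in WT cells. Its difference was 0.42 ± 0.14 (1.34-fold higher, unadjusted p = 0.022, adjusted p = 0.84), and the groups were only 0.05 apart between Mll3-null replicate 1 and WT replicate 3. The activin-binding follistatin gene Fst had the largest downward difference of all members, -1.54 ± 0.80, and it lay at 8.03, 8.63 and 5.46 in Mll3-null cells against 9.06, 9.32 and 8.37 in WT cells. Mll3-null replicate 2 was inside the WT range, and without Mll3-null replicate 3 the difference was -0.58. The follistatin-like genes Fstl3 (0.24 ± 0.19) and Fstl1 (-0.04 ± 0.10) had overlapping groups.

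BMP ligand genes showed no common direction. Of the 5, 2 had a higher and 3 a lower mean in Mll3-null cells (median -0.25). Bmp7, a BMP made by many epithelia, was at 9.45, 9.18 and 5.27 in Mll3-null cells and at 9.06, 9.21 and 9.25 in WT cells. Only Mll3-null replicate 3 was low, on the array where Krt14 and Trp63 were also low: the difference was -1.20 ± 1.06 over all arrays and 0.14 without that array. Bmp2 was at 4.56, 4.26 and 3.86 in Mll3-null cells and at 4.90, 5.25 and 4.01 in WT cells, a difference of -0.49 ± 0.34 with overlapping groups (-0.23 without WT replicate 2). Bmp6 was at 4.19, 4.62 and 4.51 in Mll3-null cells and at 4.08, 4.03 and 4.21 in WT cells, a difference of 0.33 ± 0.13 (unadjusted p = 0.042, adjusted p = 0.84), with Mll3-null replicate 1 just inside the WT range. Bmp3, which opposes other BMPs, was at 4.39, 4.62 and 4.64 in Mll3-null cells and at 4.53, 4.70 and 5.18 in WT cells (-0.25 ± 0.18, and -0.06 without WT replicate 3). Bmp4 was at 4.27, 4.09 and 4.28 in Mll3-null cells and at 4.27, 4.17 and 4.15 in WT cells. Its difference of 0.02 ± 0.09 had a 95% interval from -0.21 to 0.24. Bmp4 lay under the median on every array (4.349 to 4.400), where a value may be background, so the interval need not bound a change in its RNA. Bmp2, Bmp3, Bmp4 and Bmp6 all lay close to the array medians. Bmp6 was under the median on all WT arrays and on Mll3-null replicate 1, so its values there may also be background. Bmp1, a procollagen and chordin protease in spite of its name, was at 10.37, 9.15 and 9.25 in Mll3-null cells and at 10.13, 10.17 and 10.11 in WT cells (difference -0.55 ± 0.32, and -0.33 without Mll3-null replicate 2), with Mll3-null replicate 1 above all WT arrays and the other Mll3-null arrays below them.

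Among the target genes, Id1 and Id3 were lower and Id2 was higher by group means. Id1 was at 7.08, 6.12 and 7.23 in Mll3-null cells and at 7.35, 8.27 and 7.51 in WT cells, so that every Mll3-null array lay below every WT array, by 0.11 at the closest. Its difference was -0.90 ± 0.36 (1.87-fold lower, 95% interval -1.77 to -0.04, unadjusted p = 0.044, adjusted p = 0.84). Id3 was at 7.001, 6.13 and 7.24 in Mll3-null cells and at 7.55, 8.32 and 7.19 in WT cells, a difference of -0.90 ± 0.38, with Mll3-null replicate 3 just above WT replicate 3. For both genes Mll3-null replicate 2 was the lowest array and WT replicate 2 the highest, and the differences were -0.55 for Id1 and -0.57 for Id3 without Mll3-null replicate 2, and -0.62 and -0.58 without WT replicate 2. Id2 was at 8.67, 10.31 and 10.66 in Mll3-null cells and at 9.35, 8.86 and 9.11 in WT cells (0.77 ± 0.50, and 0.38 without Mll3-null replicate 3). Mll3-null replicate 1 was the lowest of the 6 arrays for Id2, and replicates 2 and 3 were the highest. Skil, which encodes the SMAD repressor SnoN and is induced by TGF-beta, differed by -0.28 ± 0.19 (-0.15 without Mll3-null replicate 2) with overlapping groups.

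**Figure D2:**
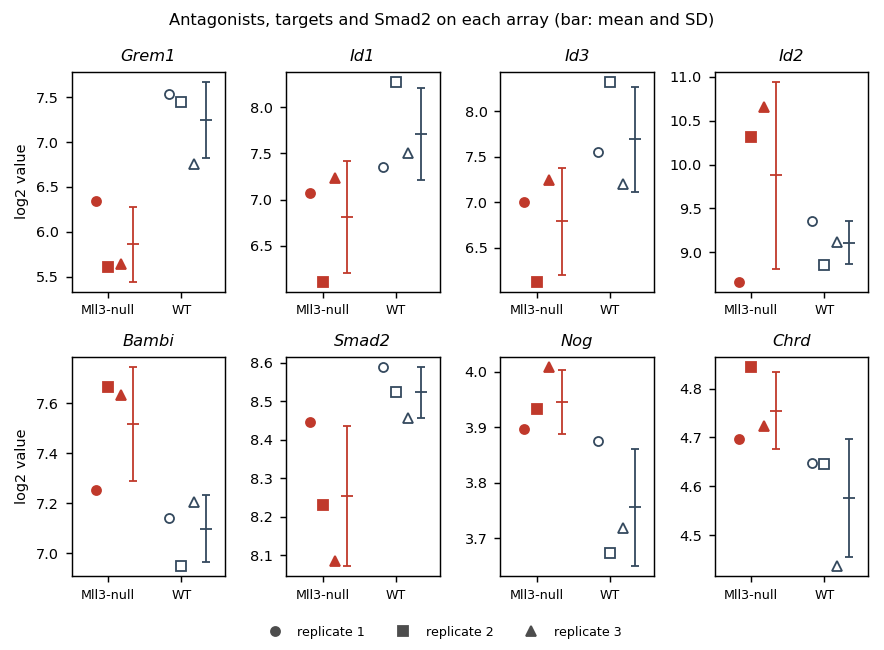
Log2 values on each array (vertical axis, its own range in each panel) for 8 genes, Mll3-null left and WT right, with the mean and SD (n = 3) beside each group. Grem1, Id1 and Smad2 lie lower, and Bambi, Nog and Chrd higher, on all Mll3-null arrays; Id3 overlaps by 1 array, and Id2 is spread over 8.67 to 10.66 within the Mll3-null group.

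Set against each other over the 6 arrays, Grem1 had a positive r with Id1 and Id3 and a negative one with Id2 and Bmp6, none past adjustment. Pearson's r of Grem1 was 0.74 with Id1 and 0.78 with Id3 (Spearman's rho 0.77 for both; exact permutation p = 0.082 and 0.051). It was -0.71 with Id2 (rho -0.43, exact permutation p = 0.12), -0.94 with Bmp6 (rho -0.89, exact permutation p = 0.018) and 0.78 with Bmp2 (rho 0.66, exact permutation p = 0.071). With Bmp7, Bmp3 and Bmp4 it was 0.50, 0.11 and 0.14 (rho 0.09 for each; exact permutation p = 0.54, 0.89 and 0.80). After Benjamini-Hochberg adjustment over the 8 pairs none passed, the smallest adjusted exact permutation p being 0.14 for Bmp6 by r and 0.27 by rho. Bmp6 and Bmp2 lay close to the array medians, where a value may be background. Without WT replicate 1 and Mll3-null replicate 2, the 2 arrays farthest from the median of Grem1, r was 0.85 for Id1, 0.75 for Id3, -0.75 for Id2, -0.95 for Bmp6, 0.80 for Bmp2, 0.77 for Bmp7, 0.29 for Bmp3 and -0.81 for Bmp4. These r values pool both genotypes, whose arrays did not overlap for Grem1 (limma adjusted p = 0.84). Taken as deviations from each group's mean, r was 0.34 for Id1, 0.51 for Id3, -0.65 for Id2, -0.89 for Bmp6, 0.85 for Bmp2, 0.34 for Bmp7, 0.57 for Bmp4 and -0.92 for Bmp3, given as a description.

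**Figure D3:**
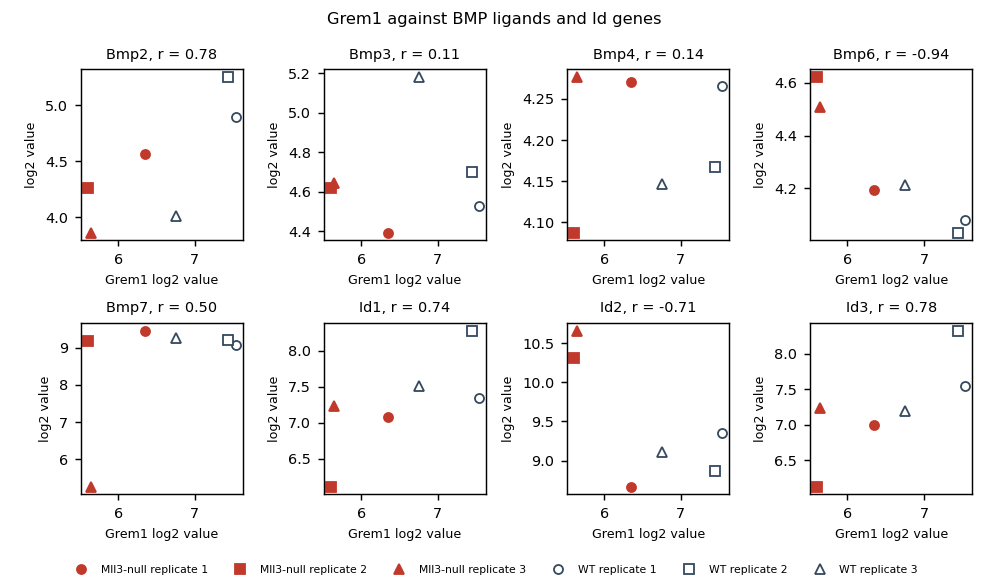
The log2 value of Grem1 (horizontal axis) against that of 5 BMP ligand genes and 3 Id genes (vertical axes, each with its own range), 1 point per array, Mll3-null filled and WT open. Id1, Id3 and Bmp2 lie higher where Grem1 is higher (r = 0.74, 0.78 and 0.78), Bmp6 and Id2 lie lower (r = -0.94 and -0.71), and Bmp7 has 1 low array, Mll3-null replicate 3.

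TGF-beta ligand genes separated the Mll3-null arrays from one another. Tgfb2 was at 5.61, 8.96 and 9.55 in Mll3-null cells and at 6.88, 5.23 and 7.09 in WT cells, a difference of 1.64 ± 1.07 with a 95% interval from -0.92 to 4.20. Tgfb3 was at 8.71, 10.21 and 10.96 in Mll3-null cells and at 9.32, 8.88 and 9.12 in WT cells (0.86 ± 0.53). For both, Mll3-null replicates 2 and 3 lay above all WT arrays and Mll3-null replicate 1 did not, and without replicate 3 the differences were 0.89 and 0.36. Without WT replicate 2 that of Tgfb2 was 1.06. Tgfb1 had a lower mean, at 9.52, 8.84 and 8.46 in Mll3-null cells and at 9.33, 9.36 and 8.93 in WT cells (-0.27 ± 0.28, and -0.03 without Mll3-null replicate 3). Ltbp2, of the family of latent TGF-beta binding proteins, was at 7.90, 9.11 and 11.02 in Mll3-null cells and at 8.05, 8.71 and 9.35 in WT cells (0.64 ± 0.77, and -0.20 without Mll3-null replicate 3). Ltbp1, which tethers latent TGF-beta to the matrix, differed by -0.04 ± 0.29.

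The activin subunit genes stood in opposite directions. Inhba, which encodes the beta A subunit, was at 8.14, 7.02 and 5.67 in Mll3-null cells and at 7.86, 8.88 and 8.27 in WT cells, a difference of -1.39 ± 0.61 or 2.63-fold lower (unadjusted p = 0.058). Inhbb, which encodes the beta B subunit, was at 8.62, 9.31 and 10.22 in Mll3-null cells and at 8.65, 8.34 and 8.73 in WT cells (0.81 ± 0.38, 1.75-fold higher, unadjusted p = 0.074). Mll3-null replicate 1 was inside the WT range for each, and the other Mll3-null arrays lay outside it on the side of the group difference. Without Mll3-null replicate 3 the differences were -0.76 and 0.39, and the adjusted p of both was 0.84 over all 6 arrays.

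By group means 6 of the 10 receptor genes were higher and 4 lower (median difference 0.05), and no receptor had groups that did not overlap. Tgfbr3, the betaglycan co-receptor that presents TGF-beta2, was at 7.17, 8.51 and 9.66 in Mll3-null cells and at 7.47, 7.37 and 7.57 in WT cells (0.98 ± 0.57, and 0.37 without Mll3-null replicate 3). Tgfbr2, the type II TGF-beta receptor, was at 8.01, 8.80 and 8.81 in Mll3-null cells and at 8.12, 8.03 and 8.15 in WT cells (0.44 ± 0.22). Both showed Mll3-null replicates 2 and 3 above all WT arrays and replicate 1 below them. Acvr1, a type I receptor for BMPs, was at 7.74, 7.36 and 7.02 in Mll3-null cells and at 7.68, 7.91 and 7.90 in WT cells, a difference of -0.46 ± 0.19 (unadjusted p = 0.047, adjusted p = 0.84) in which Mll3-null replicate 1 was inside the WT range, and it was -0.28 without Mll3-null replicate 3. The type II receptor gene Bmpr2 differed by 0.27 ± 0.19 (0.10 without Mll3-null replicate 3) and the type I receptor genes Bmpr1a, Acvr1b and Tgfbr1 by 0.09 ± 0.10, 0.08 ± 0.18 and -0.07 ± 0.18. The activin type II receptor genes Acvr2a and Acvr2b differed by less than 0.03 in size, with 95% intervals from -0.32 to 0.31 and from -0.38 to 0.33. Bmpr1b lay between 2.69 and 2.77 in Mll3-null and between 2.69 and 2.79 in WT cells, under the lower quartile of all probe sets on each array.

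SMAD genes had a lower mean in 5 of 7 cases, with small differences (median -0.18). Smad2, a receptor-regulated SMAD of the TGF-beta and activin branch, was at 8.45, 8.23 and 8.08 in Mll3-null cells and at 8.59, 8.52 and 8.46 in WT cells, without overlap but with only 0.01 between Mll3-null replicate 1 and WT replicate 3. Its difference was -0.27 ± 0.12, or 1.21-fold lower (unadjusted p = 0.054, adjusted p = 0.84). Smad3, its partner in that branch, was at 8.53, 7.89 and 8.07 in Mll3-null cells and at 8.51, 8.52 and 8.45 in WT cells (-0.33 ± 0.17), with Mll3-null replicate 1 at the top of the 6 arrays. The BMP-branch genes Smad1 and Smad5 differed by -0.18 ± 0.20 and -0.09 ± 0.13, and the common partner Smad4 by 0.05 ± 0.09, with a 95% interval from -0.18 to 0.27. Of the inhibitory SMADs, Smad7 differed by -0.33 ± 0.17 (-0.18 without Mll3-null replicate 2) and Smad6, a feedback target of BMP signalling, by 0.03 ± 0.14.

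**Figure D4:**
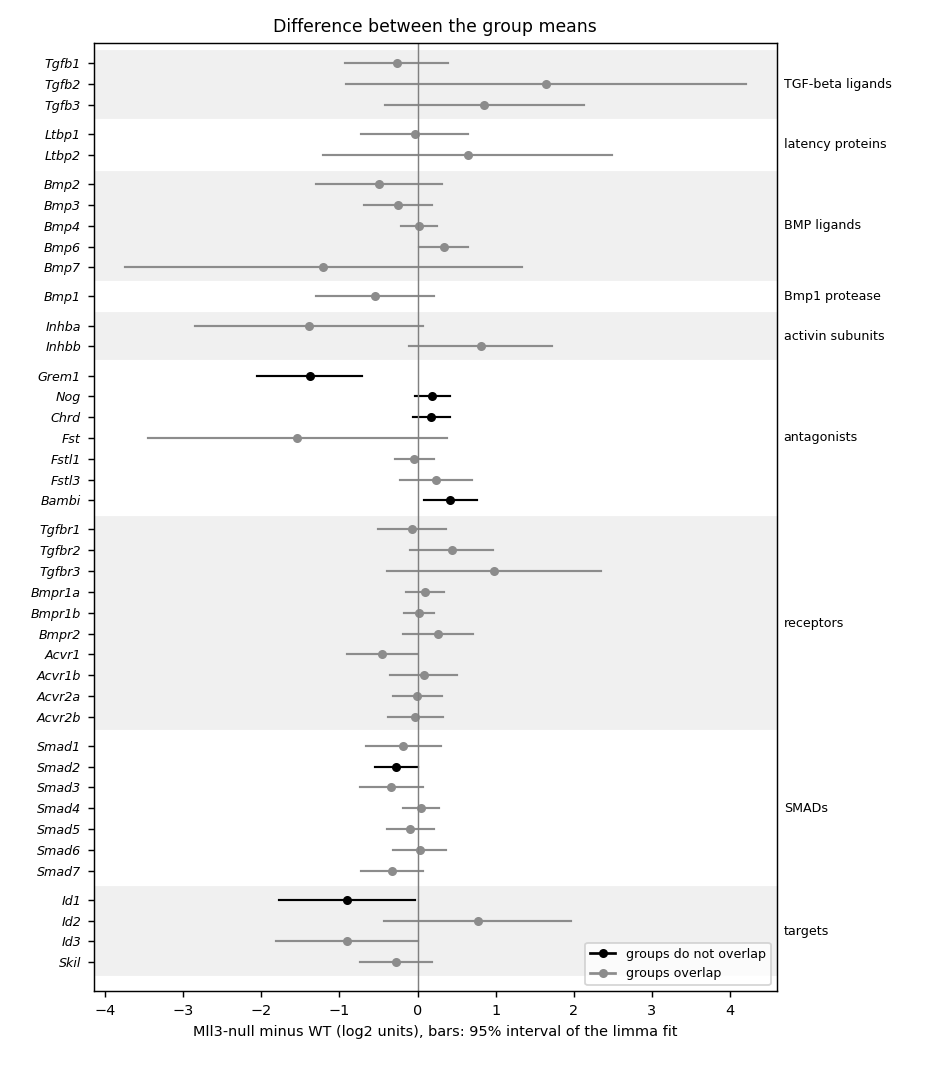
Mll3-null minus WT in log2 units for each of the 41 genes, by role, with the 95% interval of the limma fit, and in black the 6 genes whose groups did not overlap. Grem1, at -1.38, has the interval that lies farthest from 0, while the intervals of Tgfb2, Bmp7, Fst and Inhba span more than 2 log2 units each.

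A split among the Mll3-null arrays ran through ligands, receptors, SMADs and targets. Replicates 2 and 3 lay on the same side of the whole WT range, with replicate 1 not on that side, for 16 members. They were above it for Tgfb2, Tgfb3, Bmp6, Inhbb, Tgfbr2, Tgfbr3, Bmpr2 and Id2 (8 members, 19.5%, against 10.3% of all genes). They were below it for Tgfb1, Bmp1, Inhba, Tgfbr1, Acvr1, Smad3, Smad5 and Skil (8 members, 19.5%, against 8.72% of all genes). Without Mll3-null replicate 1, 18 members had an unadjusted p under 0.05 (43.9%, against 12.4% of all genes). The groups did not overlap for 22 of the 41, against 29.8% of all genes. There 0 members passed the corrected threshold, with a smallest adjusted p of 0.12. The shares in this paragraph are descriptions, since the members were chosen with earlier results of these data known. They were not matched for level: 39 of the 41 members and 14720 of 22180 genes had a mean log2 value over 4. Of the 7 luminal markers, Elf5 and Kit had Mll3-null replicates 2 and 3 above the WT range and replicate 1 inside it. Krt8, Krt18, Krt19, Epcam and Gata3 did not. Elf5, a transcription factor of luminal progenitors, was at 6.59, 8.51 and 9.02 in Mll3-null cells and at 7.64, 6.002 and 7.39 in WT cells. The receptor tyrosine kinase gene Kit was at 5.92, 8.76 and 8.16 in Mll3-null cells and at 6.78, 5.38 and 6.83 in WT cells. WT replicate 2, the lowest WT array for Elf5 and Kit, was also the lowest WT array for Tgfb2, Tgfb3, Bmp6, Inhbb, Tgfbr2, Tgfbr3 and Id2. For Bmpr2 it was the highest WT array. Krt19 was at 9.36, 8.22 and 9.22 in Mll3-null cells and at 9.56, 7.64 and 9.52 in WT cells, and for Krt8, Krt18 and Gata3 only Mll3-null replicate 3 lay above the WT range. The whole luminal list (7 of 7 measured) had a summed level of 12.62 to 12.93 in Mll3-null and 12.39 to 12.72 in WT cells, and the basal list (6 of 7 measured) one of 11.47 to 13.45 in Mll3-null and 12.93 to 13.45 in WT cells (log2 of the sum). Tgfb2, Inhbb and Bmpr2 lie on chromosome 1. The median deviation of that chromosome's expressed genes (mean log2 value over 6) from the 6-array median was -0.06, 0.09 and 0.30 in Mll3-null replicates 1 to 3. In WT replicates 1 to 3 it was -0.055, -0.063 and 0.0095. The part of these markers and of chromosome 1 in the values of the pathway genes was not tested.

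**Figure D5:**
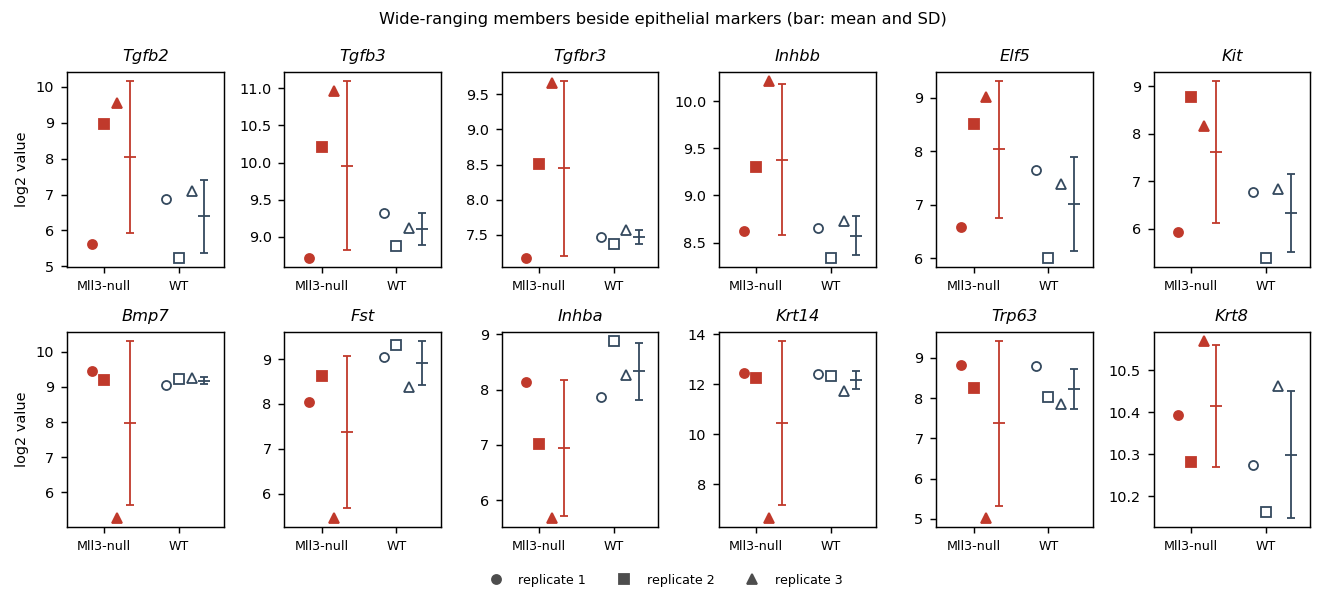
Log2 values on each array (vertical axis, its own range in each panel) for 7 pathway genes beside the luminal progenitor markers Elf5 and Kit, the basal markers Krt14 and Trp63 and the luminal keratin Krt8, Mll3-null left and WT right, with the mean and SD (n = 3). Tgfb2, Tgfb3, Tgfbr3, Inhbb, Elf5 and Kit are highest in Mll3-null replicates 2 and 3; Bmp7, Fst, Krt14 and Trp63 are far lower in Mll3-null replicate 3 than on the other 5 arrays.

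The wider pathway was surveyed with a further 97 genes, of which 88 had a value and 0 passed the corrected threshold in either direction. Before correction 3 of the 88 had a p under 0.05 (3.41%, against 4.93% of all genes), all 3 among 19 measured targets of TGF-beta or BMP signalling. Dlx5, a homeobox gene induced by BMPs, was at 4.62, 4.73 and 4.81 in Mll3-null cells and at 4.10, 3.83 and 3.97 in WT cells (0.75 ± 0.11). Cdkn2b, the cell cycle inhibitor gene induced by TGF-beta, was at 8.59, 8.83 and 8.73 in Mll3-null cells and at 9.30, 9.68 and 9.42 in WT cells (-0.75 ± 0.13). Msx2, another homeobox target of BMPs, was at 6.24, 5.56 and 5.44 in Mll3-null cells and at 6.63, 6.20 and 6.31 in WT cells (-0.63 ± 0.23), with Mll3-null replicate 1 inside the WT range. Groups did not overlap for Dlx5 and Cdkn2b, the BMP targets Dlx5 and Msx2 stood in opposite directions, and the adjusted p of all 3 was 0.84. In the other lists the gene of smallest p was Gdf11, an activin-like ligand, among 21 ligands (-0.52 ± 0.22), the chordin cofactor Twsg1 among 12 antagonists (-0.23 ± 0.12), the Nodal co-receptor gene Cripto among 7 receptors (-0.22 ± 0.11), Thbs1, an activator of latent TGF-beta, among 11 latency genes (-0.58 ± 0.25), and the SMAD repressor Ski among 18 intracellular regulators (0.26 ± 0.12). Each of these 5 had an unadjusted p over 0.05 and an adjusted p of 0.84, and Twsg1, Thbs1 and Ski had groups that did not overlap.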

How the data were processed

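RNA from 3 Mll3-null and 3 WT cultures was measured on 1 array each. The deposited log2 values were made with Affymetrix Expression Console, per the submitters' processing notes; its version, the steps of summarization and normalization and the build are not stated in the sources used here. Deposited values run from 1.72 to 13.56 with near-equal quartiles on all arrays, so scaling between arrays preceded the deposit and a change in total RNA cannot be seen. Columns were matched to samples by name, with 0 other columns of sample values.

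Of 41345 probe sets, 23521 had 1 symbol in the platform annotation, 1814 had several and 16010 were unlisted. The probe set of highest mean over the 6 arrays stood for each gene, which left 22180 genes. The fit used R 4.3.3 and limma 3.58.1 (lmFit, then eBayes, two-sided) with genotype as its single term, on all genes, with Benjamini-Hochberg adjustment over all genes and a threshold of 0.05. Correlations of Grem1 used exact two-sided permutation tests over the orders of 6 arrays. The scripts were tested on simulated data.

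The members and lists were chosen with earlier results of these data known. Values on each array are given for Grem1, the BMP ligands, the Id genes and members with non-overlapping groups or an unadjusted p under 0.05, by rule, and for other wide-ranging members chosen after their values were seen. Of the further pathway genes, those with an unadjusted p under 0.05 are named, at most 3 per list, otherwise the 1 of smallest p. Id4 was added outside this rule, as a gene of the Id family. Cripto was measured under its symbol Tdgf1. Chromosomes were taken from the GRCm38.p6 gene table. Alternatives changed the spread model, array weights, dim filter, scaling, probe sets, the replicate block and the arrays left out. Mll3-null and WT samples share the replicate numbers 1 to 3, which no label explains, and the fit had no block. The number of arrays limits the precision.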

Additional observations from a re-analysis of the deposited data

How the results depend on the processing

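Under all 14 alternatives run, 0 of the members passed the threshold, and Grem1 was lower in each. Its adjusted p ran from 0.15 without Mll3-null replicate 1 to 0.99 without Mll3-null replicate 3. Members at an unadjusted p under 0.05 numbered 5 with all arrays weighted equally, 16 with array weights, 2 after quantile normalization and 18 without Mll3-null replicate 1. They were 4.88% of members after quantile normalization, against 4.80% of all genes, and 39.0% with array weights, against 11.3%. Non-overlapping members numbered 7 to 22 of 41 when 1 array was left out, where fewer arrays overlap less often. They were 10 without WT replicate 1 (20.2% of all genes), 7 without WT replicate 2 (21%) and 13 without WT replicate 3 (20.7%). Without Mll3-null replicates 1, 2 and 3 they were 22, 8 and 8, against 29.8%, 17.9% and 18.9% of all genes. The members' median difference ran from -0.094 to 0.039. The number of members with a higher mean stayed between 15 and 21. With the replicate block 6 members had an unadjusted p under 0.05, against 5.82% of all genes, and the adjusted p of Grem1 was 0.76. The correlations of the same-numbered arrays' deviations were 0.03, 0.08 and 0.31, and not every array correlated best with its own number.

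Direction changed for 12 members in some setting, and the cause was not tested. When 1 array was left out the differences ran from -0.014 to 0.081 for Bmp4, -0.0022 to 0.044 for Bmpr1b, -0.096 to 0.23 for Acvr1b, -0.090 to 0.10 for Acvr2a, -0.015 to 0.10 for Smad4, -0.065 to 0.13 for Smad6, -0.20 to 0.22 for Ltbp1, -0.26 to 0.10 for Tgfbr1, -0.20 to 1.36 for Ltbp2, -1.94 to 0.14 for Bmp7, -0.17 to 0.058 for Acvr2b and -0.13 to 0.033 for Fstl1. Array weights gave -0.056 for Bmp4, -0.013 for Bmpr1b and -0.11 for Smad6. Quantile normalization gave -3.4e-05 for Bmp4 and 0.025 for Acvr2a, and median centring gave -0.0034 for Bmp4 and -0.0077 for Bmpr1b. None of the correlations with Grem1 passed the adjustment under any scaling, and their signs turned for Bmp4 without the 2 farthest arrays (-0.81) and for Bmp3 within groups (-0.92).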
